A study of Homo sapiens with 6 samples.

Results

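Peaks of acetylated lysine 27 of histone H3 (H3K27ac), a mark of active promoters and enhancers, were examined at 10 imprinted genes. The genes were IGF2, H19, CDKN1C, KCNQ1OT1, MEST, PEG3, PLAGL1, SNRPN, DLK1 and MEG3, of which 7 are protein-coding and 3 (H19, KCNQ1OT1 and MEG3) are long noncoding RNA (lncRNA) genes. A peak was assigned to a gene when it overlapped the gene body in GENCODE version 44 or lay within 50 kb of it. A promoter peak was one that came to within 3 kb of the start of any annotated transcript. By this rule 40 of the 30784 peaks in the list belonged to the 10 genes.

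The list came from chromatin immunoprecipitation and sequencing of SU-CCS-1 cells, a line established from human clear cell sarcoma (CCS), a soft tissue tumor driven by the EWSR1::ATF1 (EA1) fusion gene. There were 3 H3K27ac samples and 3 input samples, input being chromatin sequenced without immunoprecipitation. The labels name no treatment, and no other cell type or condition was compared. The authors deposited 1 merged list of peak positions on hg38 for all samples, without read counts or replicate values. There was therefore no error, test or depth for any peak. A gene without a peak had no stretch that passed both the calling cutoff and the authors' filtering of regions. This does not show that the gene lacked acetylation. SU-CCS-1 comes from a single tumor, and the parental copies of a gene cannot be told apart in a peak list.

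Imprinted genes are expressed mainly from the copy inherited from one parent. The choice is set by imprinting control regions, CpG-rich stretches whose DNA is methylated on one parental copy in the germline and kept so by zinc finger proteins such as ZFP57, which binds methylated TGCCGC. Many imprinted genes act on growth before birth, and many lie in clusters. In some of these clusters a lncRNA made from a single parental copy silences coding genes beside it.

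Promoter sequences of PLAGL1, SNRPN, MEST and MEG3 are printed to give the letters at starts with and without a peak. They are RefSeq windows (GRCh38.p14) that run from 250 bases before to 50 bases after a start site. The RefSeq promoter set used here held 18 such windows for PLAGL1, MEST, H19, MEG3 and SNRPN, and 3 of the 18 overlapped a peak. It held none for the other 5 members, IGF2, CDKN1C, KCNQ1OT1, PEG3 and DLK1. Of these, CDKN1C, KCNQ1OT1 and DLK1 had promoter peaks, so counts over the 18 windows leave those promoters out. The windows printed are both CpG-rich starts of PLAGL1, 1 with a peak and 1 without, the SNRPN start with a peak, and the starts of MEST and MEG3 without one. They are written 5′ to 3′ on the strand of the gene, and capitals mark TGCCGC on either strand (GCGGCA on the printed strand where it is reversed) and the ATF/CREB site TGACGTCA, which reads the same on both strands.
PLAGL1 outer start, chr6:144064550-144064849, minus strand, peak: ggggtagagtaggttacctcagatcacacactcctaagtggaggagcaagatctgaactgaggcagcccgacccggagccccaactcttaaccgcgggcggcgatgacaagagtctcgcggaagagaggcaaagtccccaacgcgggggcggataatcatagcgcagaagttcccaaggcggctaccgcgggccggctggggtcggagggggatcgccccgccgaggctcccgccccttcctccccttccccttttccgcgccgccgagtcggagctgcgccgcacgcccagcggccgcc
PLAGL1 inner start, chr6:144008210-144008509, minus strand, no peak: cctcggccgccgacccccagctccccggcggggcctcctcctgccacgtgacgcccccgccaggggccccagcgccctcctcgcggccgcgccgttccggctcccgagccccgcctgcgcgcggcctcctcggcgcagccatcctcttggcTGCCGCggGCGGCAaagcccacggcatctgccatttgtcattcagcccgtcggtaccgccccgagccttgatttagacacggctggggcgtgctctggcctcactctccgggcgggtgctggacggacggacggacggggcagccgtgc
SNRPN start, chr15:24954737-24955036, plus strand, peak: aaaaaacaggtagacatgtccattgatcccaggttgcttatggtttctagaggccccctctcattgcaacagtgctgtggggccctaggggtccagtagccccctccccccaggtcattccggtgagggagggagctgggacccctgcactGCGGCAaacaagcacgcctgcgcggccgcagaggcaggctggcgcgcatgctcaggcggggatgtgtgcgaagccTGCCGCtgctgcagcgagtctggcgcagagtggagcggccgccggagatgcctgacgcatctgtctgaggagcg
MEST start, chr7:130491835-130492134, plus strand, no peak: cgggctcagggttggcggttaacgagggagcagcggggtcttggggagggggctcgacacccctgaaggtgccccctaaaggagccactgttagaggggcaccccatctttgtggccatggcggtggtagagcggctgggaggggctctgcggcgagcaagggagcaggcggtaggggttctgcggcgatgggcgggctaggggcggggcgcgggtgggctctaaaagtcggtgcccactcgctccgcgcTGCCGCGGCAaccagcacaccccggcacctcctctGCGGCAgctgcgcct
MEG3 start, chr14:100825868-100826167, plus strand, no peak: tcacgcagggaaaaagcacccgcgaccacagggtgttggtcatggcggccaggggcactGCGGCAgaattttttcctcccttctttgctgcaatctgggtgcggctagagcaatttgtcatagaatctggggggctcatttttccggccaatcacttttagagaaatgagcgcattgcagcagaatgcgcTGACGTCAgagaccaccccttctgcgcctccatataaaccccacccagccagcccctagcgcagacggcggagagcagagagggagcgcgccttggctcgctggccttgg

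TGCCGC stood 0 times in the outer PLAGL1 window, 2 times in the inner one, 2 times in the SNRPN window, 3 times in the MEST window and 1 time in the MEG3 window. The first pair of matches in MEST overlap each other. Of the 18 windows 10 held TGCCGC, and several windows of a gene overlap. Over all 35116 RefSeq promoters the share was 16.7%, and it was 29.0% over the 16474 with a GC content of at least 50% and an observed to expected CpG ratio of at least 0.6. The windows with and without a peak printed here thus both include TGCCGC. TGACGTCA was in 3 windows, all overlapping windows of MEG3, against 1.85% of all RefSeq promoters and 3.20% of those that reach both limits. These are matches of letters and do not show that a factor was bound.

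Promoter peaks were present at 5 of the 10 genes, namely CDKN1C, KCNQ1OT1, PLAGL1, SNRPN and DLK1. Among the protein-coding members 4 of 7 had one, against 63.4% of 20015 protein-coding genes. Among the lncRNA members the count was 1 of 3, against 27.7% of 18851 lncRNA genes. These shares, 57.1% and 33.3%, were near the background and set the members apart in neither class. IGF2 and PEG3 had no peak at all in the body or within 50 kb, which was true of 16.9% of protein-coding genes. Each of the 3 lncRNA members had at least 1 peak within that distance, and 37.1% of all lncRNA genes had none. With 3 genes this does not set them apart. By the copy known to be expressed, 4 of the 7 paternally expressed members and 1 of the 3 maternally expressed ones had a promoter peak. The 4 include PLAGL1, whose peak lay at its outer promoter, which is known to be used from both copies, and not at the imprinted inner one.

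CpG islands, here windows of 200 bases beside a start that reached both of those limits, lay at the canonical start of all 7 protein-coding members. A peak lay within 3 kb of that start in 3 of them (CDKN1C, SNRPN and DLK1), against 76.2% of 14798 protein-coding genes with such an island. For protein-coding genes without an island the share was 13.7%. The members' share of 42.9% was below that of CpG island genes, and 4 of them had an island but no peak at the canonical start: IGF2, MEST, PEG3 and PLAGL1. With 7 genes and no replicate values this difference was not tested.

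**Figure D1:**
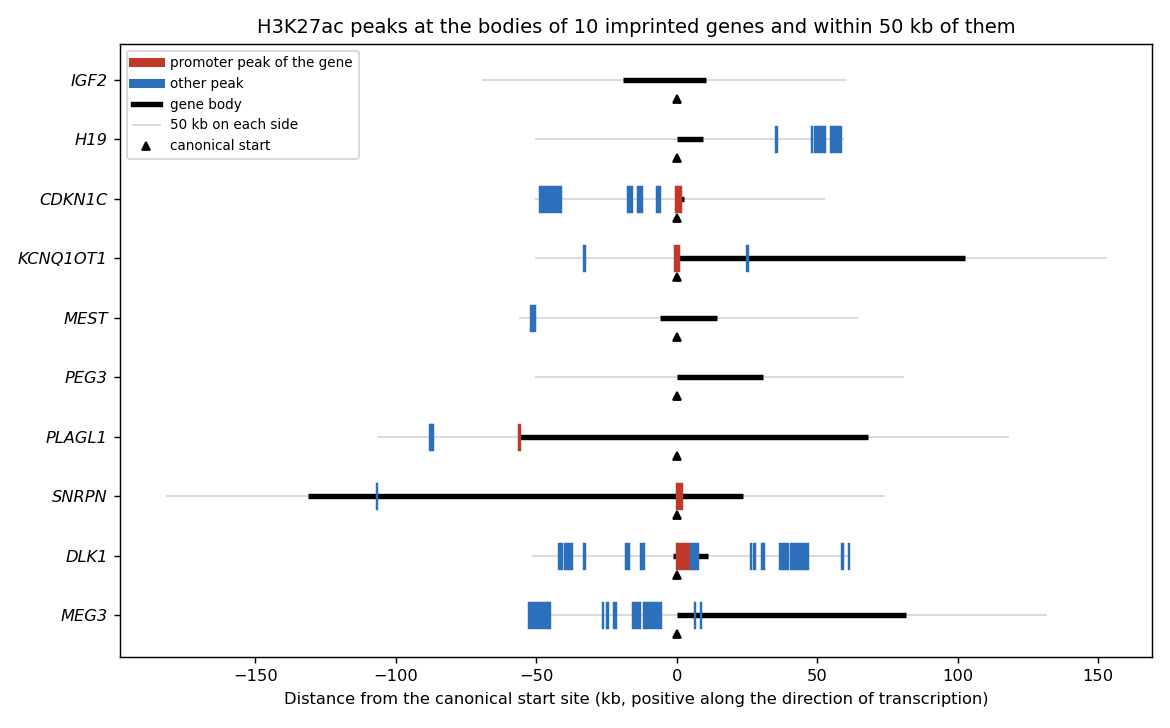
Peaks at each imprinted gene, placed by their distance in kb from the canonical start, with positive values along the direction of transcription. Red blocks are promoter peaks, blue blocks are other peaks (outlined so that narrow ones can be seen), black bars are gene bodies, thin lines reach 50 kb past each body and triangles mark canonical starts. IGF2 and PEG3 have no block, DLK1 has 20 and MEG3 has 12.

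The 40 peaks were spread unevenly over the genes. DLK1 had 20 peaks and MEG3 12, all of which were also assigned to DLK1, so that the DLK1 to MEG3 region held 50% of the peaks. CDKN1C had 7, H19 had 4, KCNQ1OT1 and PLAGL1 had 3 each, SNRPN had 2 and MEST had 1. The median was 3 over all protein-coding genes and 1 over all lncRNA genes. By position, 6 peaks were promoter peaks of a member, 4 lay elsewhere in a member's body, 15 lay at the start site of another gene and 15 were other distal peaks. In the whole list, 18842 of 30784 peaks came to within 3 kb of a start of any gene. The member promoter peaks and those at another gene's start together are the matching part of the 40, so the split does not set the members apart. Of the 15 at another gene's start, 10 lay at a protein-coding gene. The peaks measured 420 to 5890 bases, with a median of 1090 bases against 1060 bases for the whole list.

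Counted over the start sites themselves, 27 of 143 annotated starts of the members (18.9%) lay within 3 kb of a peak and 21 lay inside one. Starts in a CpG island made up nearly all of these. Of 82 starts with an island 26 were near a peak (31.7%), and of 61 without an island only 1 was (1.64%), an outer start of DLK1 that lay 0.876 kb from its promoter peak. Starts of 1 gene often lie within a few bases of each other and share a peak. Genes with many annotated starts weigh most in these shares. MEG3 had 34 starts, H19 24, PLAGL1 21 and MEST 17, and of these genes only PLAGL1 had a promoter peak. The share over all annotated starts of all genes was not computed, so these shares have no background here.

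**Figure D2:**
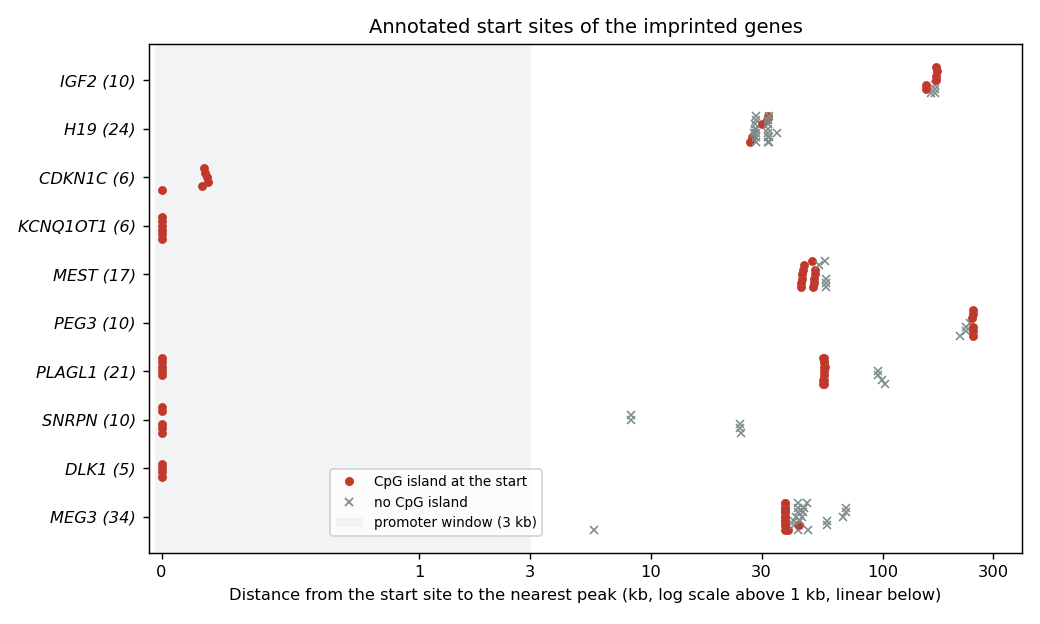
Distance in kb from each annotated start site to the nearest peak, on an axis that is linear up to 1 kb and logarithmic above it, with the number of start sites in brackets and points spread vertically for display. Red points lie in a CpG island, gray crosses do not, and the shaded band is the 3 kb promoter window. All starts of CDKN1C, KCNQ1OT1 and DLK1 are in the band, and none of IGF2, H19, MEST, PEG3 or MEG3.

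On chromosome 11, IGF2 and H19 lay together in a stretch without peaks. IGF2 encodes insulin-like growth factor 2, a fetal growth factor expressed from the paternal copy, and H19 is a maternally expressed lncRNA gene that shares enhancers with it. An imprinting control region between them, bound by CTCF on the unmethylated maternal copy, decides which gene the enhancers reach. The gap between peaks ran from chr11:1969471-2311410, 342 kb, and held both canonical starts, which are 135 kb apart. It was longer than 94.3% of all gaps between neighbouring peaks, whose median is 17.9 kb, and 1741 gaps were longer. These ranks count each gap once, whatever its length. Long gaps cover more of the genome, so a gap picked because it holds a given gene tends to be long. The rank of this gap, and those of the gaps described below, therefore do not show that a stretch is unusual for a gene. The gap also held INS, which encodes insulin, TH, which encodes tyrosine hydroxylase, and ASCL2, a transcription factor gene.

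The 10 starts of IGF2, 6 of them in CpG islands, lay 153 to 170.4 kb from the nearest peak. The 24 starts of H19 lay 26.8 to 35.1 kb from the nearest peak. The 4 peaks assigned to H19 were all on its downstream side, at or inside MRPL23, a mitochondrial ribosomal protein gene. Of these, 3 lay at MRPL23 start sites and measured 4050, 3750 and 560 bases, and the last, chr11:1968691-1969470, was an intronic peak of 780 bases 13.1 kb from the nearest protein-coding start. Stitched at the distance the study used for super-enhancers, they formed 1 region with 9140 bases of peak, rank 702 of 17049 regions by summed peak width. The flank of H19 therefore carried broad peaks while its own starts carried none.

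Farther along chromosome 11, both CDKN1C and KCNQ1OT1 had promoter peaks. CDKN1C encodes p57, an inhibitor of cyclin-dependent kinases that is expressed from the maternal copy. KCNQ1OT1 is a paternally expressed antisense lncRNA that starts in an intron of KCNQ1, a potassium channel gene, at an imprinting control region methylated on the maternal copy. In tissues where it acts, its transcription silences CDKN1C and other genes on the same copy. The canonical starts of both are 186 kb apart.

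The KCNQ1OT1 promoter peak, chr11:2699251-2701020, was 1770 bases wide, wider than 69.7% of 18842 promoter peaks. Relative to the canonical start at position 2700003 it reached from -1017 to 752 bases, and all 6 annotated starts were inside it. Its GC content was 70.7%, and it held TGCCGC 6 times, the highest count among the members' promoter peaks. KCNQ1OT1 had 2 other peaks. The first, chr11:2674451-2675220, 770 bases wide, lay in its body, and the second, chr11:2732701-2733170, 470 bases wide, lay upstream of it, both in introns of KCNQ1. KCNQ1 itself had no promoter peak, and its canonical start was 42.8 kb from the nearest peak.

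CDKN1C had 2 promoter peaks, chr11:2884331-2885570 with 1240 bases and chr11:2885941-2886420 with 480 bases. The canonical start at position 2885775 lay in the 370 bases between them, 166 bases from the upstream peak. Of the 6 starts, 5 lay in that gap and 1, at 2884701, lay inside the wider peak. A canonical start in a gap of at most 1 kb between peaks was found for 1.54% of the 11996 protein-coding genes with a peak within 3 kb of that start. The GC content was 77.3% in the wider peak and 80.0% in the narrower one, against a median of 58.2% over promoter peaks. Whether base composition had a part in the gap was not tested.

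The other 5 peaks near CDKN1C lay upstream of it, at the starts of its neighbours. A peak of 1440 bases lay at SLC22A18AS, peaks of 1970 and 1760 bases lay at SLC22A18, a transporter gene, and peaks of 3820 and 3410 bases lay at PHLDA2, a maternally expressed gene that restrains placental growth. The widest of them, chr11:2927021-2930840, covered the PHLDA2 start. CDKN1C thus had 6.83 peaks per 100 kb, denser than 91.3% of protein-coding genes. This density came mostly from peaks at the start sites of other genes.

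**Figure D3:**
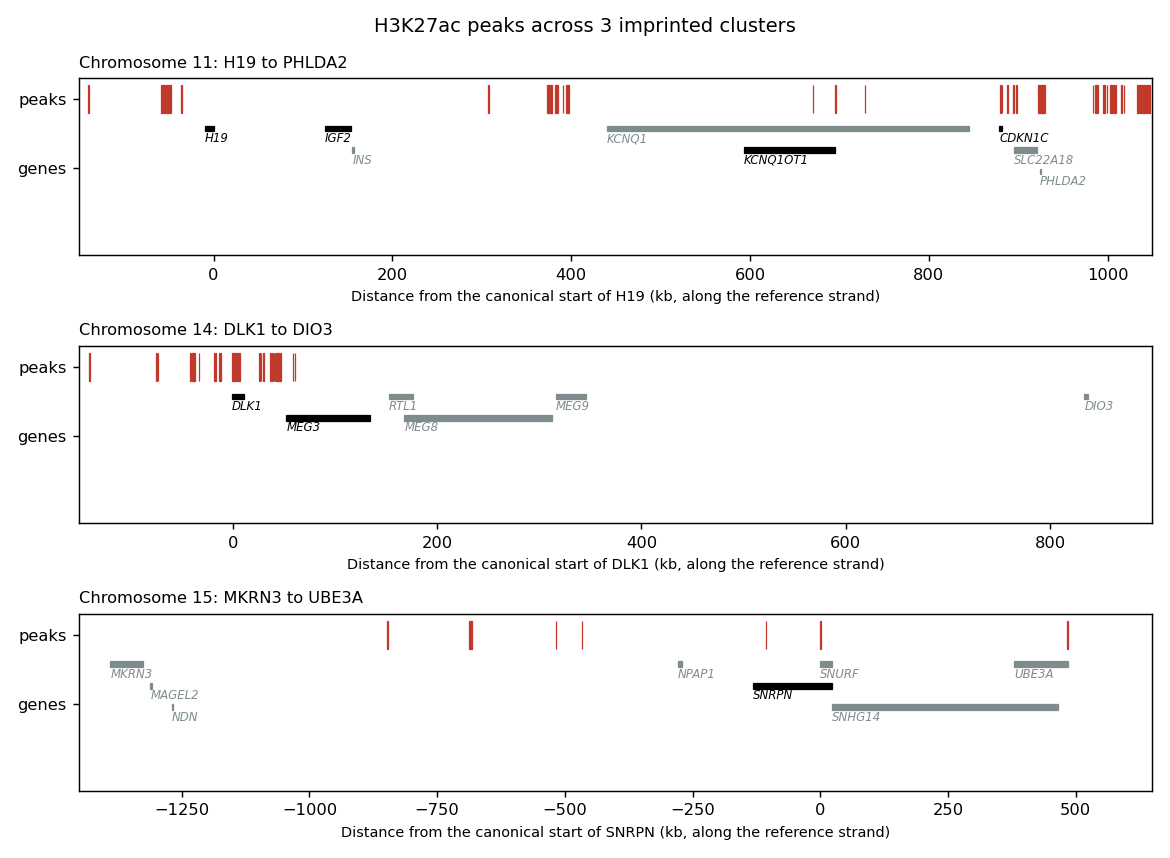
Peaks (red, outlined so that narrow ones can be seen) and genes across 3 imprinted clusters, with distance in kb along the reference strand from the canonical start of H19, DLK1 or SNRPN. Members are black and other imprinted genes gray. Among the stretches without a peak are those of 342 kb around IGF2 and H19, 943 kb from MEG3 past DIO3, 481 kb from SNRPN to UBE3A and 690 kb around NDN.

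The highest peak density was at DLK1 on chromosome 14. DLK1 encodes a transmembrane ligand-like protein of the Notch family that holds back differentiation, for example of fat cells, and it is expressed from the paternal copy. MEG3, its neighbour, is a maternally expressed lncRNA gene. DLK1 had more peaks than 99.5% of protein-coding genes, and its 17.8 peaks per 100 kb were denser than in 99.9% of them. Peaks covered 24.0% of its body and 50 kb flanks.

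The DLK1 promoter peak, chr14:100726581-100731400, was the widest promoter peak of the members, with 4820 bases, and wider than 97.1% of all promoter peaks. It ran from -311 to 4508 bases relative to the canonical start at position 100726892, so that most of it lay in the gene. It held the AP1 site TGAGTCA (searched on both strands) 3 times and TGACGTCA 0 times. Another 2 peaks, of 1400 and 1030 bases, followed in the introns of DLK1. Upstream of the promoter peak stood 8 peaks of 450 to 1710 bases with 7350 bases in all. Of these, 2 lay at the start of an unnamed gene (ENSG00000289278) and 6 were distal.

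Between the bodies of DLK1 and MEG3, 41.2 kb apart, lay 7 distal peaks of 460 to 5890 bases. Their summed width was 11.4 kb. The widest, chr14:100767851-100773740, was the widest of the 40 peaks and wider than 98.6% of all peaks, and its nearest protein-coding start was that of DLK1, 40.8 kb away. Stitched in the same way, the peaks of the locus formed 3 regions. The region with the 7 peaks and the 2 in MEG3 held 12400 bases of peak and ranked 393 of 17049, the region with the DLK1 promoter held 10070 bases and ranked 583, and the upstream region held 4530 bases and ranked 2110. H3K27ac at DLK1 was thus spread over many separate peaks on both sides of the promoter.

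MEG3 had no promoter peak despite 12 peaks within 50 kb, more than 98.1% of lncRNA genes. Its canonical start in GENCODE, position 100779410, was 5.67 kb from the widest intergenic peak and had no CpG island. The other 33 starts were 37.9 to 69.4 kb from a peak, among them 15 in CpG islands, including the start whose window is printed above. The 2 peaks in its body, of 540 and 490 bases, both lay between the GENCODE canonical start and those starts. With the RefSeq body, chr14:100826108-100861026, which begins at the CpG-rich starts, MEG3 had 0 peaks in the body and 2 within 50 kb. The count at MEG3 thus depended on the annotation, whereas no start was near a peak under either.

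Past the last peak in MEG3 no peak followed for 943 kb, a gap exceeded by 502 gaps in the list and longer than 98.4% of them. This stretch held the rest of the cluster, namely RTL1, a retrotransposon-derived gene, the lncRNA genes MEG8 and MEG9, and DIO3, which encodes a deiodinase that inactivates thyroid hormone. The peaks of the cluster thus all lay upstream of the CpG-rich starts of MEG3.

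**Figure D4:**
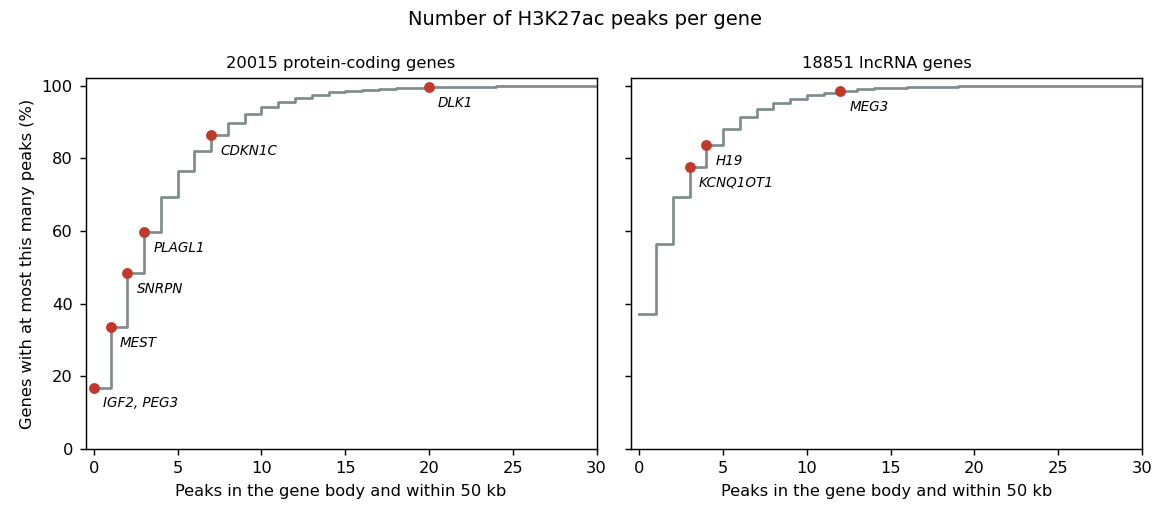
Cumulative share of genes, in percent, with at most a given number of peaks in the body and within 50 kb, for 20015 protein-coding genes (left) and 18851 lncRNA genes (right), with the members as red points. DLK1, with 20 peaks, and MEG3, with 12, lie near the top of the curves, and IGF2 and PEG3 are at 0.

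SNRPN on chromosome 15 had a promoter peak at its CpG island start. SNRPN encodes a small nuclear ribonucleoprotein involved in splicing, is expressed from the paternal copy, and starts at the imprinting control region of the Prader-Willi and Angelman syndrome cluster. The peak, chr15:24954681-24956860, was 2180 bases wide and wider than 80.6% of promoter peaks. It ran from -306 to 1873 bases relative to the canonical start at position 24954987 and held TGCCGC 3 times, 2 of them in the window printed above. All 5 starts with a CpG island were inside it, as was the start of SNURF, which shares the transcript. The 5 outer starts, without an island, were 8.17 to 24.3 kb from a narrow intronic peak of 420 bases, chr15:24847961-24848380, and had no promoter peak.

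The rest of the cluster was bare over long stretches. After the SNRPN peak no peak followed for 481 kb, up to the promoter peak of UBE3A, a ubiquitin ligase gene expressed from the maternal copy in neurons. This gap was longer than 96.1% of all gaps, with 1209 longer ones, and spanned SNHG14, the lncRNA host of small nucleolar RNAs. NDN, MAGEL2 and MKRN3, paternally expressed genes of the same cluster, lay in another gap of 690 kb. In all, 5 chromosome 15 genes of the list of other imprinted genes had no promoter peak. The peaks at SNRPN and UBE3A stood alone, each as the single promoter peak of its gene.

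PLAGL1 on chromosome 6 encodes a zinc finger transcription factor that restrains proliferation. Its inner promoter, shared with the lncRNA gene HYMAI, is methylated on the maternal copy and active on the paternal one, while the outer promoter is known to be used from both copies. The only promoter peak, chr6:144063881-144064820, was at the outer promoter. It was 940 bases wide, wider than 34.5% of promoter peaks, and covered all 5 outer starts. The canonical start at position 144008259 belonged to the inner promoter and was 55.6 kb from that peak, in a gap of 220 kb. In all 12 starts of the inner group, every one in a CpG island, lay 55.1 to 56.5 kb from a peak. The other 4 starts had no island and lay at least 94.9 kb away. A peak at PLAGL1 was thus found at the promoter outside the imprinted region and not at the one inside it. The other 2 peaks assigned to PLAGL1, of 780 and 430 bases, lay at the start of SF3B5, a splicing factor gene.

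MEST and PEG3, both paternally expressed, had CpG island promoters without a peak. MEST on chromosome 7 encodes an enzyme of the alpha/beta hydrolase fold and marks mesodermal tissue in the embryo. Its 17 starts, 12 of them in islands, lay 44.6 to 56.8 kb from the nearest peak, a peak of 1600 bases at the start of CEP41, a centrosomal protein gene. MEST was the only protein-coding gene wholly inside its gap of 226 kb. PEG3 on chromosome 19 encodes a zinc finger protein that affects maternal behaviour and growth in mice. Its 10 starts, 6 of them in islands, lay 215 to 245 kb from a peak. The gap of 595 kb around it was longer than 97.0% of all gaps, with 937 longer ones, and held ZIM2, USP29 and ZIM3 as well. PEG3 was the member farthest from any peak.

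**Figure D5:**
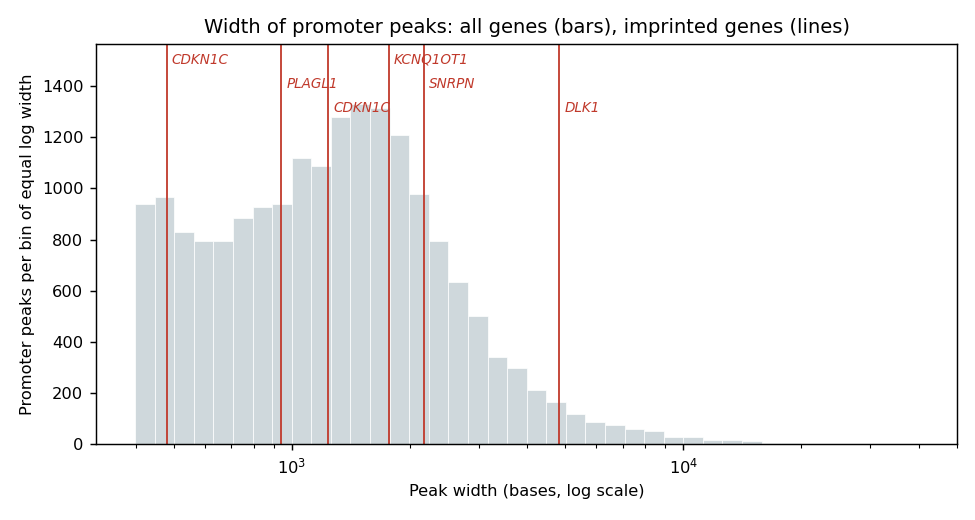
Width in bases (log scale) of the 18842 promoter peaks of all genes, as gray bars of equal log width, and of the 6 promoter peaks of imprinted genes, as red lines. The lines run from 480 bases (CDKN1C) to 4820 bases (DLK1), and the DLK1 line is in the right tail.

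The promoter peaks of the members varied widely in width and base composition. Their widths were 480, 940, 1240, 1770, 2180 and 4820 bases, against a median of 1270 bases. GC content was 58.7% at DLK1 and 59.1% at SNRPN, near the median of 58.2%, and at or above 70.5% in the 4 peaks of PLAGL1, KCNQ1OT1 and CDKN1C. The ratio of observed to expected CpG was lowest in the DLK1 peak, at 0.476, and highest in the wider CDKN1C peak, at 0.936, with a median of 0.642 over promoter peaks. All 6 held TGCCGC at least once, against 48.5% of promoter peaks, a comparison not adjusted for width or GC content. Over the 40 member peaks the share was 42.5%, against 35.0% of all peaks. TGACGTCA was in 0 of the 40 (2.58% of all peaks), and TGAGTCA was in 7, or 17.5% (16.8% of all peaks).

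The list of other imprinted genes named 38 genes, of which 37 were matched in GENCODE. A promoter peak was found at 16 of them (43.2%), among them 16 of 29 protein-coding genes (55.2%, against 63.4% of all protein-coding genes) and 0 of 8 lncRNA genes (against 27.7% of all lncRNA genes). No peak in the body or within 50 kb was found for 11 of the 29 protein-coding genes, against 16.9% of all, and for 5 of the 8 lncRNA genes, against 37.1% of all. Of the 26 protein-coding genes with a CpG island at the canonical start, 14 (53.8%) had a peak within 3 kb of it, against 76.2% of all such genes. The difference was not tested. Together with the members, 21 of 47 imprinted genes and 1 of 11 imprinted lncRNA genes, KCNQ1OT1, had a promoter peak. Imprinted genes of a cluster are neighbours, and several share a peak or a gap, so these genes are not independent.

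The widest promoter peak among the other imprinted genes, 8860 bases, was at GNAS, which encodes the stimulatory G protein alpha subunit that couples receptors to cAMP. This peak held the canonical start and lay within 3 kb of 31 of the 59 annotated GNAS starts. GNAS-AS1 had no promoter peak, and its canonical start was 30.5 kb from the nearest peak. Whether the promoter peaks of the other imprinted genes lay at imprinted starts was not examined. The GNAS peak was followed in width by PHLDA2 with 3820 bases, SNURF with the 2180 bases it shares with SNRPN, UBE3A with 2110 bases and SLC22A18 with 1970 bases. PEG10 and SGCE, transcribed in opposite directions, shared 1 peak of 1180 bases, as did ZNF597 and NAA60, with 1410 bases. GRB10, an inhibitor of growth factor receptor signalling, had a peak of 1460 bases at an alternative start, 9.62 kb from its canonical start. NAP1L5, a single-exon gene, had a peak of 1390 bases. NNAT, which lies inside BLCAP, had no promoter peak, and its start was 5.62 kb from the BLCAP promoter peak of 1760 bases. DIRAS3, a growth-restraining GTPase gene, had no promoter peak, and its canonical start was 181 kb from the nearest peak of any kind.

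Regulators that set or keep imprints mostly had promoter peaks. Among 12 such genes 10 had one (83.3%, against 63.4% of all protein-coding genes), with the widest peak of each between 660 and 3180 bases. Of the 11 with a CpG island at the canonical start, 10 (90.9%) had a peak within 3 kb of it. The share was 76.2% over all protein-coding genes with such an island, and the difference was not tested. DNMT1, the maintenance DNA methyltransferase, had 4 promoter peaks, the widest of 2480 bases. DNMT3A, a de novo methyltransferase, had 2, the widest of 3180 bases. TRIM28, the corepressor recruited by ZFP57 and ZNF445, had a peak of 3040 bases, and CTCF one of 2390 bases. ZFP57 itself had none, and its canonical start was 11.4 kb from the nearest peak, whereas ZNF445, the other zinc finger protein known to protect imprints, had a peak of 660 bases. DPPA3, a factor of the egg and early embryo, had none within 219 kb of its start.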

How the data were processed

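Chromatin from SU-CCS-1 was immunoprecipitated with anti-H3K27ac (3 samples) or kept as input (3 samples). Reads were mapped by the authors to hg38 (BWA-MEM, 0.7.10-r789). They removed duplicates with samtools, called broad peaks with MACS2 (2.2.6) against input and removed regions on the ENCODE denylist. The deposited file is 1 merged list with 4 columns, for chromosome, start, end and peak name. Its values are positions in bases, and it holds no score or read count. Whether peaks were called on pooled reads or per replicate is not stated, and the list does not give the depth reached in each sample, for which the methods of the study state only a nominal value.

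Starts were converted to count from 1 and compared with GENCODE version 44 and with RefSeq by Python 3.11.15 and numpy 2.4.6. The code was tested on simulated peaks. Genes shared by X and Y were counted once. Percentiles are shares of genes, peaks or gaps with a lower value. Peaks were stitched at the distance used in the study and ranked by summed width. A CpG island was called where a 200-base window at the start passed both limits. The genes named are the members, the listed imprinted genes and regulators of imprints, and the hosts or neighbours of assigned peaks. The members and the 2 lists were chosen with earlier results of these data known. No test was run, since the list has no replicate values.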

Additional observations from a re-analysis of the deposited data

How the results depend on the processing

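Of 21 alternatives tried over 5 results, 18 left the count within 1.5 times the reported one and 3 moved it further. All 3 concerned the number of peaks assigned to the members, 40 as reported. It was 11 with the gene body alone, 25 with 20 kb on each side and 20 when the widest 50% of peaks were kept. With 100 kb on each side it was 45. The number of members with a promoter peak, 5, was 4 with the canonical transcript alone and 4 with the widest 50% of peaks, and PLAGL1 was the gene lost in both. The background moved as well. With the widest 50% of peaks, the number of all protein-coding genes with a promoter peak was 9737 in place of 12691, and that of lncRNA genes 3855 in place of 5222. RefSeq gene bodies, an alternative chosen after seeing the data, left 40 peaks.

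No paired analysis was possible because replicates have no columns of their own in the list. This also kept any replicate from being left out. No error is given, and the depth behind a peak or behind its absence is unknown. Broad calling joins neighbouring stretches, so widths and counts of peaks also depend on the joining rule.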
